A study of Mus musculus with 34 samples.

Results

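The promoter marks H3K4me3 and H3K9ac were compared with each other in control microglia, using the 4 peak lists of each mark. These 8 samples of the 34 in the series (32 of which have a peak list) were taken by their group labels, Ctrl H3K4me3 and Ctrl H3K9ac, replicates 1 to 4. Microglia are the resident macrophages of the brain, and here came from the hippocampus of mice of genotype Tmem119-tdTomato+/-, a reporter carried by every sample used here that labels cells expressing the microglial gene Tmem119. The Ctrl mice are the controls of FGR mice in a series on growth restriction before birth, and none of the 8 samples has that treatment. The labels give an age of 3 weeks after birth for replicates 1 to 3 and no age for replicate 4. Whether a replicate is 1 animal, a pool or a repeat from 1 source is not in the labels, so every p-value reflects the spread of these libraries alone, and that spread may be technical. The marks were measured by ULI-NChIP-seq, an immunoprecipitation of native, unfixed chromatin made for small numbers of cells.

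H3K4me3, the trimethylation of lysine 4 on histone H3, is written by SET1 and MLL complexes that are drawn to CpG-rich promoters. It marks the first nucleosomes downstream of the start of active and poised genes. H3K9ac, the acetylation of lysine 9 on the same histone tail, is written by acetyltransferases such as Gcn5 and Pcaf, removed by histone deacetylases, and found at active promoters and at active enhancers. In many cell types, silent developmental genes with CpG islands carry H3K4me3 without acetylation, together with the Polycomb mark H3K27me3, which was not measured in the samples used here.

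A gene end was said to carry a mark where a peak lay within 1 kb of it, and both ends of 21631 protein-coding genes were used, 43262 ends in all. Of these, 8281 ends (19.1%) carried both marks in all 8 lists. Another 63 ends (0.146%) carried H3K4me3 in all 4 lists and H3K9ac in none, and 1006 ends (2.33%) carried H3K9ac in all 4 lists and H3K4me3 in none. A further 5828 ends were mixed between lists and 28084 had neither mark in any list. Ends are the outermost positions of a gene, so a start inside it was not counted here. The RefSeq promoter table gave a strand for 17274 genes, so that starts could be told from far ends. Both marks were found together at 6357 of 17274 starts (36.8%) and at 412 of 17274 far ends (2.39%). H3K4me3 without H3K9ac was found at 46 starts and 2 far ends. H3K9ac without H3K4me3 was found more often at far ends, 489, than at starts, 330. The remaining ends of each class, 1512, 15 and 187 in the same order, belong to genes with no strand in that table.

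The start site sequences of 3 genes of each class are printed to show how their CpG content varied within and between the classes. Each is 300 bases, 250 before and 50 after the start in RefSeq GRCm38.p6, the assembly from which mm10 is built, with every CpG dinucleotide in capitals. They are the 3 genes of each class with the longest cover at an end among those with a single start site of that class. Sp9, a zinc finger factor of forebrain interneurons, Ascl2, a basic helix-loop-helix factor of trophoblast and intestinal stem cells, and Dkk2, a Wnt antagonist, carried H3K4me3 alone. Sp9 is at chr2:73271676-73271975 on the plus strand, Ascl2 at chr7:142969215-142969514 on the minus strand and Dkk2 at chr3:132085042-132085341 on the plus strand.
Sp9: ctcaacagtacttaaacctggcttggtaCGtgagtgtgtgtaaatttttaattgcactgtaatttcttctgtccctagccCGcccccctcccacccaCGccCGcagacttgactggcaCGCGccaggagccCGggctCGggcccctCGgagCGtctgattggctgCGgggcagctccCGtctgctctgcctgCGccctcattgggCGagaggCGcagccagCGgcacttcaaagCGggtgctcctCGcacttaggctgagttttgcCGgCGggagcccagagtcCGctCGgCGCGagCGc
Ascl2: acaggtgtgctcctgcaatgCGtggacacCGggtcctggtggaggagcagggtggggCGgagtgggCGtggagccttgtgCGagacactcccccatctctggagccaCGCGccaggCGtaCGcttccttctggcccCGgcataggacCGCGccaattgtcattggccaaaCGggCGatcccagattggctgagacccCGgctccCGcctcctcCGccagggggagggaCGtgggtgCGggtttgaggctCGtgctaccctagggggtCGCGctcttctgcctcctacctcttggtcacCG
Dkk2: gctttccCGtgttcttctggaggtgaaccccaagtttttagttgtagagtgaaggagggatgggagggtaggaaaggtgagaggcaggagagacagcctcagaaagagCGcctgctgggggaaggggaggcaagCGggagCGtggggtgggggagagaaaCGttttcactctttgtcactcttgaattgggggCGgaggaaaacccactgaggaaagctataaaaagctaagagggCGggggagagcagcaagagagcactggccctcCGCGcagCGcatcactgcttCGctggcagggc
Rin2, a guanine nucleotide exchange factor for Rab5, Rcc2, a regulator of cell division, and Evi2b, a membrane protein of blood cells, carried H3K9ac alone. Rin2 is at chr2:145785866-145786165 on the plus strand, Rcc2 at chr4:140701223-140701522 on the plus strand and Evi2b at chr11:79523713-79524012 on the minus strand.
Rin2: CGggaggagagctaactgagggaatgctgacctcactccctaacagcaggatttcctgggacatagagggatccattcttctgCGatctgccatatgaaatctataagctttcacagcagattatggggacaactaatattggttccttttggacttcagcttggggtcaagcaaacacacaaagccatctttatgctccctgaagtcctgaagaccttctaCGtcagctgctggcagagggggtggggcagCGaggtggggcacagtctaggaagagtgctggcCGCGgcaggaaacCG
Rcc2: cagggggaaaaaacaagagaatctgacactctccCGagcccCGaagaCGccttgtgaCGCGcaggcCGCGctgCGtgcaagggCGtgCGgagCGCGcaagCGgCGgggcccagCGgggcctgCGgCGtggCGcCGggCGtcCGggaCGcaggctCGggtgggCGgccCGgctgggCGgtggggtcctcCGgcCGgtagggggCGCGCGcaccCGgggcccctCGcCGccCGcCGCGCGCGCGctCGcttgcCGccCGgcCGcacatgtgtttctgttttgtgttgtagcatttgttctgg
Evi2b: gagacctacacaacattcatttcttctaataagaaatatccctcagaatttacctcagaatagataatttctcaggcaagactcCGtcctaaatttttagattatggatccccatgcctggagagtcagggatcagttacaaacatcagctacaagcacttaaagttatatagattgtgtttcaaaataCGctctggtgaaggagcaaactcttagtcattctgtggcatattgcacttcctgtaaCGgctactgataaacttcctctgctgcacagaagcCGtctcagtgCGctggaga
Dusp6, a phosphatase of ERK kinases, Nrp1, a co-receptor of semaphorins and VEGF, and P2ry13, an ADP receptor of microglia, carried both. Dusp6 is at chr10:99262981-99263280 on the plus strand, Nrp1 at chr8:128358823-128359122 on the plus strand and P2ry13 at chr3:59210833-59211132 on the minus strand.
Dusp6: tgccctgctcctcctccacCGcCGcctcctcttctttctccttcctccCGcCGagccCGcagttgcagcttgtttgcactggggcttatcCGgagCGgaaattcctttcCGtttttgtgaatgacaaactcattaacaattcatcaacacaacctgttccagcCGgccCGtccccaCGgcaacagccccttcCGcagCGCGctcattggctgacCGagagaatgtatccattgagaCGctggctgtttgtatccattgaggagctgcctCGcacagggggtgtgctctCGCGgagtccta
Nrp1: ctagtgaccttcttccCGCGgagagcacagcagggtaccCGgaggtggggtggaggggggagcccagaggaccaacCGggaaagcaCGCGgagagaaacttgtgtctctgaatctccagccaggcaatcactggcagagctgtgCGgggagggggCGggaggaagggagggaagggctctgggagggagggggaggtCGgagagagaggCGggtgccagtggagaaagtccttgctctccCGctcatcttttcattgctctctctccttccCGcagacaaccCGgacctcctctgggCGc
P2ry13: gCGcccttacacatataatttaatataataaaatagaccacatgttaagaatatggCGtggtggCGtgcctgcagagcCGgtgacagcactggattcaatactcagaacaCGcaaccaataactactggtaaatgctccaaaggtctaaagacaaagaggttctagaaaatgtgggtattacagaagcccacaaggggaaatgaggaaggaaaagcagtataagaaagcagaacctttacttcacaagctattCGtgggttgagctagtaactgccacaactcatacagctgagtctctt
The Sp9, Ascl2 and Dkk2 windows hold 25, 23 and 11 CpG. Those of Rin2 and Evi2b hold 7 and 5, but that of Rcc2, of the same class, holds 44, the most of the 9. With both marks, Dusp6 holds 19 CpG, Nrp1 14 and P2ry13 6. The classes thus overlap in these 9 windows, and they were compared over all single starts instead.

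CpG content was taken over the 14513 genes with a single start site in the table. The ratio of observed to expected CpG had a median of 0.804 at 5443 starts with both marks and of 0.747 at 37 starts with H3K4me3 alone. It was 0.470 at 222 starts with H3K9ac alone and 0.202 at 6304 starts with neither, against 0.570 over all. A ratio over 0.6 was found at 81.8% of starts with both marks, 81.1% with H3K4me3 alone, 40.1% with H3K9ac alone and 12.3% with neither. By these medians, starts with H3K9ac alone held fewer CpG than starts with H3K4me3 alone or both marks and more than unmarked starts. The median GC content was 61.7%, 64.0%, 56.3% and 47.7% in the same order. Short motifs were searched on both strands of the 300 bases. AGGAAGT, letters bound by Spi1 (PU.1) and other ETS factors, was found at 20.7% of starts with H3K9ac alone, 8.78% with both marks, 5.41% with H3K4me3 alone and 9.47% of all starts. TATAAA was found at 21.6% of starts with H3K4me3 alone, 6.49% with both marks, 8.56% with H3K9ac alone and 14.4% of all. GGGCGG, the core bound by Sp factors, was found at 78.4%, 69.1% and 45.9% of starts with H3K4me3 alone, both marks and H3K9ac alone, and at 45.9% of all. These motif shares are descriptions, GGGCGG holds a CpG itself, and the class with H3K4me3 alone has only 37 starts.

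**Figure D1:**
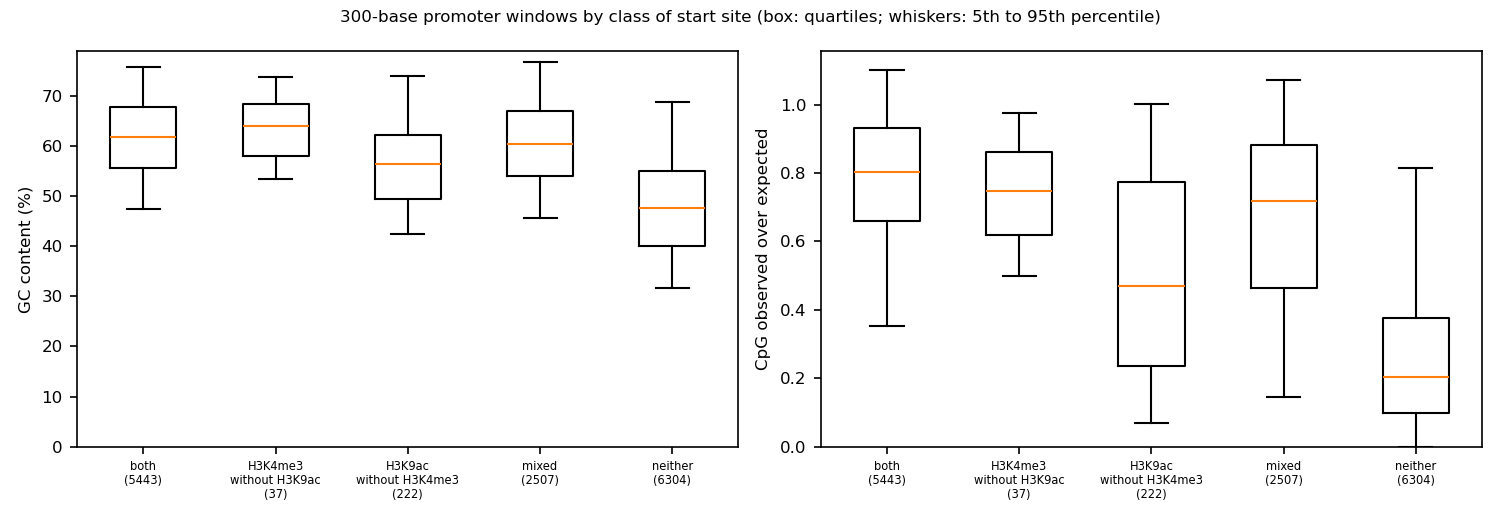
GC content in percent (left) and observed over expected CpG (right) of the 300-base windows at single start sites, by class of mark, with the number of starts under each name. Boxes show quartiles and medians and whiskers the 5th to 95th percentile: the class with H3K9ac alone has a median ratio of 0.470, between 0.804 for both marks and 0.202 for neither.

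The lists of the marks differed in size. H3K4me3 lists held 18391, 16752, 16598 and 17131 peaks and H3K9ac lists 45436, 46698, 47729 and 42220, so that every H3K9ac list was longer than every H3K4me3 list. The mean was 17218 ± 813 (SD, n = 4) against 45521 ± 2392, a log2 difference of 1.40 (SE 0.0511). H3K9ac covered 43.4 ± 1.21 Mb and H3K4me3 11.1 ± 0.759 Mb, a 3.90-fold difference. Median peak width was 545 ± 9.66 bp for H3K4me3 and 657 ± 27 bp for H3K9ac. Of H3K4me3 peaks, 63.8% ± 1.13 lay at gene ends, against 27.4% ± 1.17 of H3K9ac peaks. H3K4me3 was found at 10695 ± 243 gene ends and H3K9ac at 13184 ± 161. Each of these measures, and of the 4 on start sites given later, separated the marks without overlap (two-sided exact permutation test, p = 0.0286, the smallest that 4 against 4 libraries allow, and 0.0286 after Benjamini-Hochberg adjustment over the 9 measures). With every list cut to the length of the shortest by its strongest peaks, the gene end difference turned to -132 (exact p = 0.0857), the share at gene ends differed by -10.7 rather than -36.5 percentage points, and the log2 difference in covered genome was 1.32 rather than 1.96.

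**Figure D2:**
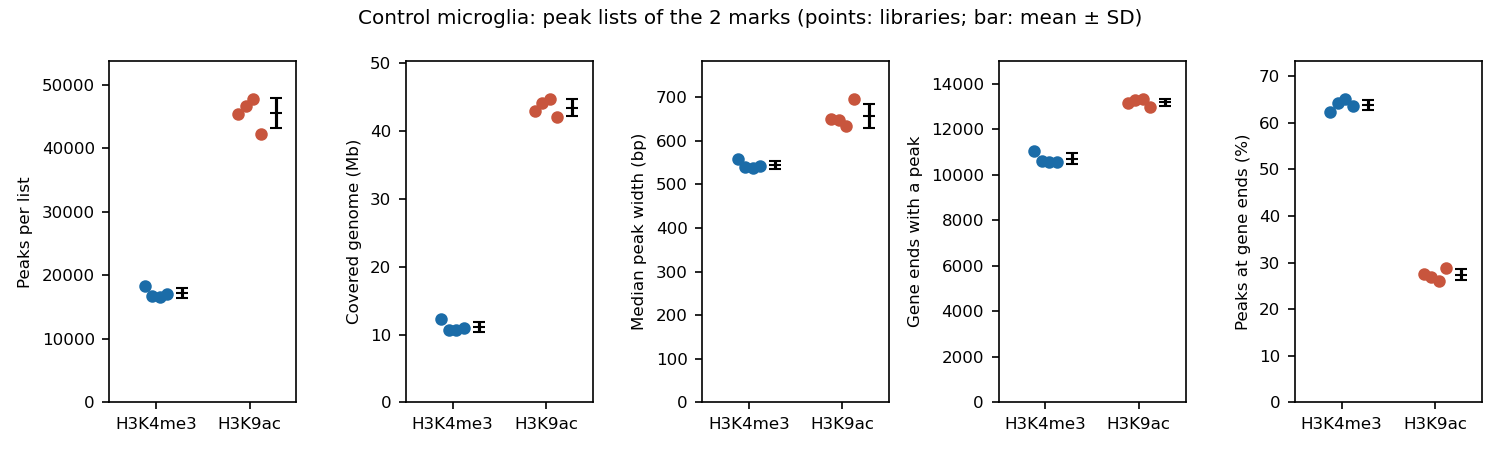
Number of peaks, covered genome in Mb, median peak width in bp, gene ends with a peak, and percent of peaks at gene ends in the 4 H3K4me3 and 4 H3K9ac lists. Points are libraries and bars the mean ± SD: H3K4me3 has 16598 to 18391 peaks and H3K9ac 42220 to 47729, and the marks overlap in no panel.

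The strength of the 2 immunoprecipitations also differed, as far as the lists show it. The highest fold enrichment of a peak was 9.52 to 9.71 in H3K4me3 lists and 24.5 to 27.2 in H3K9ac lists. The lists carry no read counts, so depth is unknown. The lowest local background, solved from each peak's fold and p-value, was 2.84 to 3.58 for H3K4me3 and 2.35 to 2.63 for H3K9ac. The smallest peak width, which follows the fragment length setting, was 275 to 280 bp and 262 to 271 bp. The part of these differences in the results was not tested, and mark, antibody and enrichment cannot be told apart here. Across the 13082 genes tested, covered length per gene correlated at a mean r of 0.789 between H3K4me3 lists, 0.958 between H3K9ac lists and 0.616 between marks (genes are not independent replicates). Of 26 homeostatic microglial genes, 20 carried both marks in all lists, where 36.8% of all genes did, against 1 of 16 neuronal, 2 of 13 astrocytic and 1 of 14 oligodendrocyte lineage genes.

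Most H3K4me3 lay under H3K9ac, and most H3K9ac lay outside H3K4me3. On average 92.1% ± 0.395 (SD, n = 4) of the H3K4me3 peaks of a list overlapped an H3K9ac peak by at least 1 base. This share was 94.3% ± 0.327 at gene ends and 88.2% ± 0.496 away from them. In the other direction, 29.2% ± 1.49 of H3K9ac peaks overlapped H3K4me3, 72.8% ± 0.731 at gene ends and 12.8% ± 0.821 away from them. Of H3K4me3 peaks, 73.4% ± 1.33 lay wholly inside an H3K9ac peak, and 1.10% ± 0.0886 of H3K9ac peaks lay wholly inside an H3K4me3 peak. With lists of equal length the shares were 77.3% and 62.5%, so the H3K9ac share depended on list length by more than 1.5 times. It was 16.7% where the overlap had to cover 50% of the peak.

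Among ends with both marks, the longest H3K4me3 lay at Dusp6, with 4.48, 3.78, 3.58 and 2.96 kb in the 5-kb window and 4.90 to 5.0 kb of H3K9ac. Next came Myc, the growth-promoting transcription factor (3.68 ± 0.184 kb against 3.98 ± 0.183), and Trib1, a pseudokinase that guides protein degradation (3.55 ± 0.325 against 4.65 ± 0.0507). Marcks, a membrane-bound substrate of protein kinase C, and Nrp1 both had 3.38 kb of H3K4me3. The far end of Acoxl and the start of Bcl2l11, a pro-apoptotic BH3 protein, share a window, with 3.36 and 3.35 kb. At P2ry13 all 4 H3K9ac lists filled the whole window (5.0 kb) while H3K4me3 ranged from 2.68 to 3.96 kb. Over the class the median end had 0.906 kb of H3K4me3 and 1.73 kb of H3K9ac.

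Among ends with H3K4me3 alone, the longest cover was at Sp9. Sp9 had 2.35, 1.86, 1.88 and 1.69 kb of H3K4me3 and 0 kb in every H3K9ac list. Esrp1, an epithelial splicing regulator, had 1.07 to 2.52 kb, Rnf220, a ubiquitin ligase, 1.01 to 1.94 kb, and Ascl2 0.560 to 1.79 kb. Nkx2-3 (1.11 to 1.5 kb), a homeobox factor of gut and spleen, carried the mark at its far end. Gsx1, a homeobox factor of the ventral forebrain, had 1.03 to 1.3 kb. Dkk2 varied most between its lists, from 0.477 to 2.13 kb. Igdcc3, an immunoglobulin superfamily protein, had 1.10 ± 0.289 kb. At Vgll4, a TEAD cofactor, and Ier5l the nearest H3K9ac reached into the 2.5-kb window with 0.608 and 0.614 kb, but not within 1 kb of the end. The class median was 0.728 kb, ranging from 0.366 to 1.94 kb. The median fold enrichment of H3K4me3 was lower at these 63 ends, 3.96 to 4.17 by list, than at ends with both marks, 4.77 to 4.98. Leaving out replicate 4 of H3K4me3 raised the class from 63 to 103 ends, a rule that is looser by construction. Cutting all lists to equal length gave 548 ends, requiring at least 3 of 4 lists against at most 1 gave 297, and a −log10 q of at least 5 left 24.

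Among the 10 longest ends with H3K9ac alone, most were far ends. Hs1bp3 had 4.77 to 5.0 kb of H3K9ac at its far end, and the far end of Rin2 had 3.84 to 5.0 kb. Il10ra, the ligand-binding chain of the interleukin 10 receptor, had 4.56, 4.24, 4.69 and 4.74 kb at 1 end and no H3K4me3 in that window. The far ends of Plekho1, a pleckstrin homology domain protein, and of Med29, a Mediator subunit, had 4.33 and 4.33 kb. Ppp1r9a (4.21 ± 0.222), Col15a1 (4.15 ± 0.388) and Tifab (3.94 ± 0.374) also carried it at their far ends. Nek6, a mitotic kinase, carried it at its start (4.09 ± 0.198), in a window shared with Psmb7. Bcl9l (3.93 ± 0.260) shared its window with the chemokine receptor gene Cxcr5. The class median was 1.26 kb, and the median fold of H3K9ac was 6.09 to 6.18 by list against 10.4 to 10.9 at ends with both marks. The class held 393 ends with lists of equal length and 2017 with at least 3 of 4 lists against at most 1.

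H3K27ac, the acetylation of lysine 27 on the same tail and a mark of active enhancers and promoters, was found at most ends of the classes with H3K9ac and at none with H3K4me3 alone. The 4 Ctrl H3K27ac lists all had a peak at 7631 of 8281 ends with both marks (92.2%) and at 896 of 1006 ends with H3K9ac alone (89.1%). At the 63 ends with H3K4me3 alone, no H3K27ac list had a peak. Over all gene ends, 26.9% had a peak in all 4 lists and 68.7% had none in any list. H3K9me3, a heterochromatin mark, was called in all 3 broad Ctrl lists at 0.519%, 3.17% and 2.98% of ends with both marks, H3K4me3 alone and H3K9ac alone, and at 7.02% of all ends. In the FGR mice, 62 of the 63 ends with H3K4me3 alone in Ctrl had a peak in all 4 lists labelled H3K4me3, and 62 of 63 had one in all 4 lists labelled H3K9ac. Over all gene ends these shares were 32.8% and 33.4%. The ends with H3K9ac alone had a peak in all 4 FGR lists of each label at 66.1% and 59.6%. The FGR lists go against their labels in more than 1 respect. Lists labelled FGR H3K4me3 met more of the ends with H3K9ac alone than lists labelled FGR H3K9ac did. They were also more like Ctrl H3K9ac than Ctrl H3K4me3, and more like Ctrl H3K9ac than the lists labelled FGR H3K9ac were. Across the 13082 genes, lists labelled FGR H3K4me3 correlated at a mean r of 0.840 with Ctrl H3K9ac and of 0.693 with Ctrl H3K4me3, and those labelled FGR H3K9ac at 0.608 and 0.437. Treatment, label and list quality cannot be told apart in this comparison.

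Around the 5443 single start sites with both marks, H3K9ac was the broader mark on both sides of the start. H3K9ac covered 89.6% ± 0.838 of the start sites themselves and H3K4me3 50.7% ± 1.76. Both were highest about 200 bp into the gene, where they covered 96.2% ± 0.305 and 81.8% ± 1.60. At 1000 bp into the gene the shares were 47.1% and 18.7%, and at 1000 bp before it 25.2% and 7.85%. Both marks had a second shoulder before the start, at -300 bp, with 79.5% for H3K9ac and 48.2% for H3K4me3. Between the shoulders, at -100 bp, the shares were 78.3% and 40.8%. At the median start, the H3K9ac peak reached 932 ± 6.03 bp into the gene and 565 ± 5.12 bp away from it. The H3K4me3 peak reached 555 ± 13.2 bp into the gene, with 573, 544, 546 and 555 bp by list, and 84.5 ± 25.9 bp away from it. H3K9ac thus extended 377 bp further into the gene (SE 7.27) and 480 bp further away from it (SE 13.2).

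**Figure D3:**
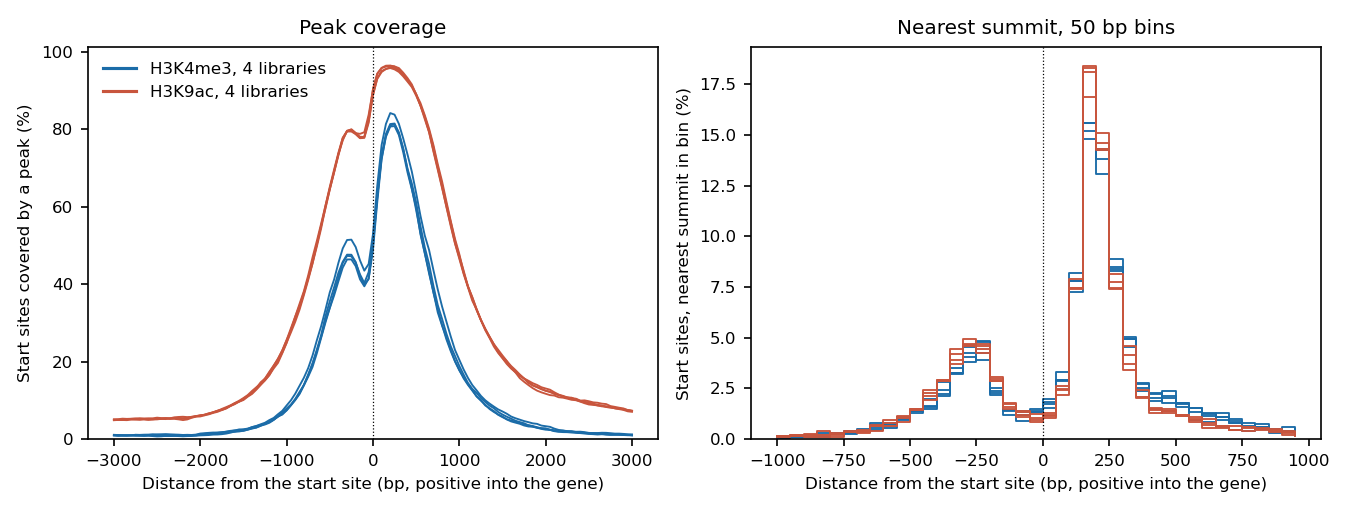
Percent of 5443 start sites with both marks that are covered by a peak (left) and percent whose nearest summit falls in each 50-bp bin (right), against distance from the start in bp, positive into the gene. Each line is 1 library: H3K9ac covers more starts at every distance, with 89.6% against 50.7% at the start itself, while the summits of both marks crowd between 50 and 300 bp.

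The summits, the highest points of the peaks, had close medians. The median nearest summit of H3K4me3 was 183, 181, 183 and 182 bp into the gene, and that of H3K9ac 170, 171, 172 and 173 bp. The groups did not overlap, and the difference of -10.8 bp (SE 0.804) is larger than the spread of the medians within either mark. Single ends varied more. At ends with both marks, the summits of 2 H3K4me3 lists lay a median of 111 bp apart (107 to 115 over 6 pairs) and those of 2 H3K9ac lists 42.3 bp apart (31 to 47). The summits of different marks were 106 bp apart (101 to 112 over 16 pairs), a range that overlaps that of H3K4me3 lists among themselves. Summits of different marks fell within 100 bp of each other in 48.9% of cases and within 500 bp in 78.6%. Between 50 and 300 bp into the gene lay 48.4% ± 0.719 of H3K4me3 and 50.2% ± 0.651 of H3K9ac summits. Further in, from 500 to 1000 bp, lay 8.67% ± 0.280 and 6.0% ± 0.296. Before the start, from -500 to -250 bp, lay 12.9% ± 0.347 and 15.3% ± 0.410. The summit lay inside the gene at 72.0% ± 0.586 of starts for H3K4me3 and 68.1% ± 0.451 for H3K9ac.

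Few single starts separated the marks in all lists. All 4 H3K9ac summits lay further into the gene than all 4 H3K4me3 summits at 208 of 5443 starts (3.82%), and the reverse held at 359 (6.6%). Both marks were inside the gene in all 8 lists at 2052 starts (37.7%) and both outside at 326 (5.99%). The largest shift of H3K9ac in the direction of the gene was counted at C1qc, a chain of complement C1q. Its H3K9ac summits lay at 7059, 7040, 7055 and 7057 bp and its H3K4me3 summits at 2014, 1417, 268 and 475 bp. C1qc itself spans only chr4:136889801-136892936, so these H3K9ac summits lay past its far end. They fell within the neighbouring gene C1qb (chr4:136880126-136886200) and show no shift inside C1qc. Pou2f2, a B cell octamer factor (2981 ± 590 against 486 ± 376 bp), Maml3, a Notch coactivator (2203 ± 871 against 162 ± 89.4), Zswim6 (1504 ± 10.6 against -497 ± 1072) and Klf3, a Krüppel-like repressor (2454 ± 110 against 637 ± 299), followed. In the opposite direction, H3K9ac lay before the start of Junb, an AP-1 subunit, at -3739 to -4010 bp, with H3K4me3 between -894 and 619 bp. Zfp36, an mRNA decay factor, had H3K9ac at -3289 ± 114 and H3K4me3 at 650 ± 613 bp. Mef2d, a MADS-box factor (-2820 ± 1648 against 331 ± 263), Ski, a repressor of TGF-beta signalling (-1078 ± 20.9 against 995 ± 511), and Fmc1, a mitochondrial protein (-1678 ± 54.4 against 197 ± 50), completed the 5. At P2ry12, the microglial ADP receptor, H3K4me3 summits lay at 137 to 237 bp and H3K9ac summits at 966 to 2444 bp. Its H3K9ac peak ran from 2647 to 2790 bp before the start to 5218 to 5389 bp into the gene, with 1 summit in each list, so a distant summit can belong to a peak that covers the start.

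Covered length per gene, in kb of peaks within 2.5 kb of either end, was tested with limma over 13082 genes. H3K9ac was longer at 10057 genes (76.9%) and H3K4me3 at 347 (2.65%). The median gene had 0.724 kb of H3K4me3 and 1.54 kb of H3K9ac, a median difference of 0.775 kb. Quantile normalization, which gives every list the same distribution of covered length and so asks which genes stand apart from the general difference, moved the median difference to -0.0694 kb. It called H3K9ac longer at 2085 genes (15.9%) and H3K4me3 longer at 2524 (19.3%). Lists of equal length gave 8081 genes (67.1%) and 1006 (8.36%) of 12036 tested. Each list of genes below is read against these shares, and list members can share a window. Of the 13082 genes, 1580 had cover in fewer than 2 H3K4me3 lists and 542 in fewer than 2 H3K9ac lists (956 and 287 in none). Such genes could not have met the filter of 2 lists without the other mark, so entry largely set their direction. The same holds for the genes given below with no cover of 1 mark, and their calls are a description.

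In favour of H3K9ac, the smallest adjusted p belonged to Med29. It had 0.554 to 0.835 kb of H3K4me3 and 6.11 to 6.41 kb of H3K9ac (limma, Benjamini-Hochberg adjusted p = 2.63e-09), in a window shared with Paf1. Its far end lies in the region with both marks that also holds Zfp36. Plekho1 had 0 to 0.436 kb against 7.18 to 7.90 kb (adjusted p = 3.33e-09). Tyrobp, the signalling adaptor of Trem2, had 1.51, 1.15, 1.05 and 1.44 kb against 6.60, 7.0, 7.09 and 7.02 kb, with a difference of 5.64 kb (SE 0.151), in a window shared with Hcst, the adaptor DAP10. Il10ra had 2.47 ± 0.300 against 8.84 ± 0.280 kb, Havcr2, the inhibitory receptor Tim-3, 0.414 ± 0.0462 against 4.86 ± 0.234 kb, and Lyl1, a haematopoietic transcription factor, 1.80 ± 0.115 against 6.68 ± 0.141 kb. Atp6v0c, the proton-conducting ring subunit of the vacuolar ATPase, had 2.14 ± 0.192 against 8.72 ± 0.285 kb. Cep43, Tifab and Ppp1r9a completed the 10, with differences of 5.80, 5.49 and 5.20 kb. All 10 stayed called in favour of H3K9ac after quantile normalization, with differences of 2.17 to 5.14 kb.

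In favour of H3K4me3, the smallest adjusted p belonged to Nkx2-3, with 1.41 ± 0.112 kb and H3K9ac listed at 0 (limma, adjusted p = 9.72e-07). Sp9 (1.94 ± 0.284 kb), Gsx1 (1.18 ± 0.112), Rnf220 (1.65 ± 0.428), Mecom (1.02 ± 0.192), a zinc finger factor of blood stem cells, and Bmp8a (0.869 ± 0.128), a bone morphogenetic protein, also had H3K9ac at 0 in all 4 lists. Hoxa5 had 1.20 ± 0.168 against 0.0663 ± 0.133 kb, in a window shared with Hoxa6. Cxcl12, a chemokine of stromal cells, had 1.53 ± 0.339 against 0.0705 ± 0.141 kb. Hoxa5 and Cxcl12 had H3K9ac in 1 list only. Without H3K4me3, these 2 and the genes with H3K9ac at 0 could not have met the filter of 2 lists. For them entry largely set the direction, so their calls are a description. Among the 10, 2 genes carried both marks in all lists, E030030I06Rik (2.61 ± 0.0815 against 1.69 ± 0.0460 kb) and Rnd3, an atypical small GTPase (1.74 ± 0.153 against 0.655 ± 0.151). With a −log10 q of at least 5, Nkx2-3, Rnd3 and Cxcl12 were no longer called (adjusted p = 0.113, 0.261 and 0.154). Nkx2-3, which carried the mark at its far end, also lost its call over single start sites (-0.157 kb, adjusted p = 0.219).

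**Figure D4:**
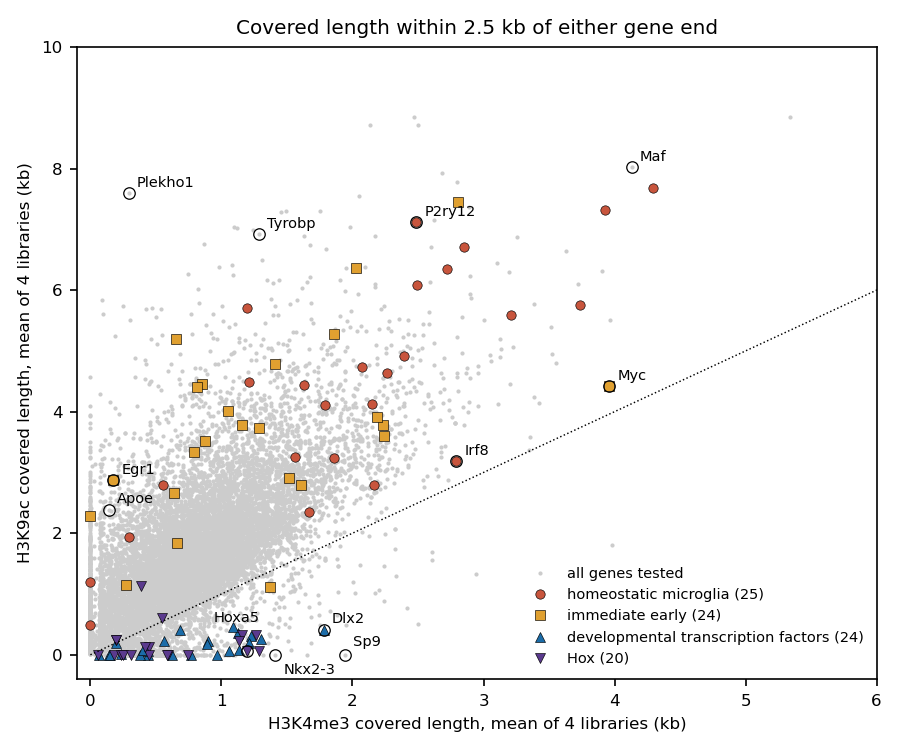
Mean covered length in kb of H3K4me3 (x) and H3K9ac (y) over 4 libraries each for the 13082 genes tested, with 4 gene lists coloured, named genes circled and a dotted line of equal length. In the lists as deposited, without quantile normalization, homeostatic and immediate early genes lie mostly above the line, developmental and Hox genes mostly below it, as with Sp9 at 1.94 and 0 kb.

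Of 26 homeostatic genes of microglia, 20 carried both marks in all lists, and H3K9ac was longer at all 25 that were tested, with a median difference of 2.38 kb against 0.775 kb over all genes. The median member tested had 2.15 kb of H3K4me3 and 4.48 kb of H3K9ac. Members without long cover included Mef2c, at 0 in all 8 lists, and Gpr34 and Mef2a, with no H3K4me3 in any list and 0.484 ± 0.417 and 1.20 ± 0.236 kb of H3K9ac. After quantile normalization 7 were longer in H3K9ac and 4 in H3K4me3. P2ry12 had 2.87, 2.13, 2.28 and 2.67 kb of H3K4me3 and 7.39, 6.78, 7.21 and 7.11 kb of H3K9ac (limma, adjusted p = 3.18e-08), and it kept its call after normalization (1.48 kb, adjusted p = 0.000925). Cx3cr1, the fractalkine receptor, had 2.72 ± 0.711 against 6.35 ± 0.549 kb. Tmem119, the gene of the reporter, had 2.15 ± 0.225 against 4.13 ± 0.455 kb, Csf1r, the receptor that keeps microglia alive, 2.39 ± 0.121 against 4.91 ± 0.359, and Siglech, a sialic acid-binding lectin, 2.26 ± 0.0942 against 4.64 ± 0.799. Among the transcription factors, Sall1 had 3.21 ± 0.565 against 5.6 ± 0.367 kb and Spi1 1.21 ± 0.421 against 4.48 ± 0.127. Irf8 was nearly equal, with 2.92, 2.91, 2.64 and 2.69 kb against 3.18, 3.24, 3.1 and 3.21 kb (adjusted p = 0.00697). After quantile normalization Irf8 turned to -1.94 kb (adjusted p = 1.25e-05), while Tmem119, Csf1r and Sall1 turned sign without passing. Cx3cr1 and Siglech also lost their calls (0.521 and 0.00403 kb, adjusted p = 0.386 and 0.993). Slc2a5, a fructose transporter, was the 1 gene of the list with H3K9ac in all lists and H3K4me3 in none at its ends, as 2.33% of all genes were.

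Of 22 disease-associated genes tested, 20 were longer in H3K9ac and none in H3K4me3 (9 and 3 after quantile normalization). Tyrobp led, and Trem2, the lipid receptor it serves, had 2.33 ± 0.263 against 3.47 ± 0.167 kb (limma, adjusted p = 5.75e-05), a difference that turned to -0.983 kb after normalization (adjusted p = 0.00295). Apoe, Cst7 and Itgax carried H3K9ac in all 4 lists and H3K4me3 in none at their ends. Apoe, the lipid carrier, had 0, 0.561, 0 and 0 kb of H3K4me3 and 2.5, 2.61, 2.52 and 1.92 kb of H3K9ac, in a window shared with Tomm40. Lgals3, galectin 3, had 0.229 ± 0.267 and 0.0948 ± 0.190 kb and did not pass. Of 24 inflammatory genes, 22 were longer in H3K9ac (13 after normalization) and none in H3K4me3 (1). Nfkbia, the inhibitor of NF-kappaB, led with 0.592 ± 0.167 against 4.0 ± 0.194 kb, and Nfkb1 had 1.13 ± 0.153 against 2.99 ± 0.332. Tlr7, Ccl2 and Cxcl10 were in the class with H3K9ac alone, Tlr7 with 3.02 ± 0.0675 kb. Itgax and Cxcl10 lost their calls after normalization (adjusted p = 0.127 and 0.0558).

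Of 20 complement and phagocytosis genes, 19 were longer in H3K9ac (5 after normalization, and 2 in H3K4me3). C1qc had 2.80 ± 0.513 against 7.79 ± 0.222 kb and C1qa 2.38 ± 0.275 against 5.22 ± 0.250, a call that C1qa lost after normalization (0.240 kb, adjusted p = 0.280). Pros1, a bridging ligand of TAM receptors, had 1.04 ± 0.139 against 2.83 ± 0.192 kb. C5ar1, the C5a receptor, had no H3K4me3 in any list and 4.19, 3.47, 3.60 and 3.64 kb of H3K9ac. Of 16 antigen presentation genes, 13 were longer in H3K9ac, near the share of all genes (5 after normalization, and 4 in H3K4me3), led by B2m with 1.02 ± 0.423 against 4.14 ± 0.551 kb. Cd74, the invariant chain, had no H3K4me3 and 2.75 ± 0.0313 kb of H3K9ac. Of 18 interferon response genes 13 were longer in H3K9ac, again near that share, and after normalization 3 in H3K9ac and 4 in H3K4me3. Isg15 had 0.482 ± 0.215 against 2.55 ± 0.309 kb and Stat2 0.390 ± 0.380 against 0.955 ± 0.0767, which lost its call after normalization (0.0188 kb, adjusted p = 0.960). Ifit2 had 0.391 ± 0.0348 and 0.356 ± 0.0784 kb and did not pass (limma, adjusted p = 0.753). It was called longer in H3K4me3 after quantile normalization (-0.501 kb, adjusted p = 0.00327) and with lists of equal length (-0.391 kb, adjusted p = 0.00276).

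Immediate early genes had the largest median difference of the lists, 2.49 kb, with 23 of 24 longer in H3K9ac (13 after quantile normalization, and 3 in H3K4me3). Zfp36 had 2.81 ± 0.664 against 7.45 kb in every H3K9ac list, and Junb 2.03 ± 0.665 against 6.36 ± 0.237. The 7.45 kb are the whole window of Zfp36, so its H3K9ac length is a ceiling. Fosb had 1.29 ± 0.468 against 3.73 ± 0.292 and lost its call after normalization (0.789 kb, adjusted p = 0.0796). Myc turned from 0.467 kb (adjusted p = 0.0222) to -2.79 kb after normalization (adjusted p = 9.87e-05). Nr4a1, an orphan nuclear receptor, had no H3K4me3 in any list and 2.47, 2.22, 2.24 and 2.22 kb of H3K9ac. Egr2 went the other way in mean, 1.37 ± 0.154 against 1.1 ± 0.249 kb in a window shared with Ado, and did not pass (limma, adjusted p = 0.133). It was called longer in H3K4me3 after quantile normalization (-1.30 kb, adjusted p = 0.000481) and with lists of equal length (-0.605 kb, adjusted p = 0.00085). Only 2 H3K4me3 lists and 1 H3K9ac list had a peak within 1 kb of an Egr2 end. Among constitutive genes, 14 of 14 housekeeping genes and 29 of 30 ribosomal protein genes were longer in H3K9ac, where 76.9% of all genes tested were. The counts of 18 of 21 for oxidative phosphorylation, 10 of 13 for glycolysis and 20 of 24 for the cell cycle lie near that share and are no result about these genes. After normalization the counts of these 5 lists were 7, 7, 3, 2 and 1, with 0, 3, 2, 5 and 2 longer in H3K4me3. Actb had 2.62 ± 0.333 against 7.15 ± 0.453 kb, and Gapdh 1.19 ± 0.476 against 2.82 ± 0.453, which lost its call after normalization (adjusted p = 0.537). Pfkp, the platelet phosphofructokinase, was the 1 gene of these lists longer in H3K4me3, with 1.47 ± 0.0557 against 0.949 ± 0.318 kb (adjusted p = 0.0101), and with a −log10 q of at least 5 it turned to 0.103 kb.

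Of the enzymes that write, erase or read the marks, 20 of 21 for acetylation and 14 of 16 for H3K4 methylation were longer in H3K9ac (6 and 4 after normalization, with 2 and 3 in H3K4me3). Kat5, the acetyltransferase Tip60, had 1.09 ± 0.406 against 3.57 ± 0.466 kb, and Hdac6, a largely cytoplasmic deacetylase, no H3K4me3 and 1.10 ± 0.172 kb. Setd1b, an H3K4 methyltransferase, had 1.61 ± 0.660 against 4.21 ± 0.149 kb and lost its call after normalization (adjusted p = 0.260). Kdm5b, an H3K4 demethylase, had 0.231 ± 0.302 against 1.61 ± 0.171 kb and lost its call with lists of equal length (adjusted p = 0.0657). Among gene families, 60 of 61 clustered histone genes, 255 of 319 Zfp genes and 20 of 21 clustered protocadherins tested were longer in H3K9ac, and 18, 28 and 0 after normalization. In the other direction the numbers were 0, 1 and 0, and 6, 65 and 0 after normalization. The 255 of 319 for Zfp genes lie near the 76.9% of all genes tested and are no result about them. The same holds for the 14 of 16 for H3K4 methylation. After normalization 15.9% of all genes were longer in H3K9ac and 19.3% in H3K4me3, and the 65 Zfp genes lie near the latter share. Of 1459 olfactory and vomeronasal receptor genes, 1445 had neither mark at an end in any list. Olfr111 was an exception, with 0.191 ± 0.229 against 5.25 ± 0.424 kb.

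Without normalization, developmental transcription factors and Hox genes were the lists with more members longer in H3K4me3 than in H3K9ac. After quantile normalization this was also so for the Zfp, glycolysis, interferon response, cell cycle, neuronal and astrocytic lists. It was so for all genes tested as well, with 19.3% against 15.9%. Of 50 developmental factors 24 were tested, and 16 were longer in H3K4me3 and none in H3K9ac, where 2.65% and 76.9% of all genes tested were. Of these 24, 14 had cover in fewer than 2 H3K9ac lists, so that they could not have met the filter of 2 lists without H3K4me3, and 8 had no H3K9ac in any list. The same held for 13 and 9 of the 20 Hox genes tested and for 542 and 287 of all 13082 genes. For such members entry largely set the direction, so the counts of members tested are a description. The other 26 factors and 19 Hox genes had cover in fewer than 2 of the 8 lists. After quantile normalization 18 were longer in H3K4me3 and none in H3K9ac. None of the 50 carried both marks in all lists, and 2, Dlx1 and Neurog2, carried H3K4me3 in all lists with H3K9ac in none at their ends (0.296% of all genes did). Dlx2, a homeobox factor of interneurons, had 1.78 ± 0.520 against 0.415 ± 0.309 kb (limma, adjusted p = 0.000531). Dlx1, its neighbour, had 1.27, 1.13, 1.71 and 0.735 kb against 0, 0, 0.369 and 0.375 kb, and Neurog2, a proneural factor, 0.749, 1.75, 0.281 and 1.09 kb against 0 in every list. Emx2, a cortical factor, had 0.621 ± 0.589 kb against 0 (adjusted p = 0.0367), and leaving out replicate 2 or 3 of H3K4me3, or any 1 of the 4 H3K9ac lists, ended this call (adjusted p = 0.0703 to 0.0963), as did quantile normalization (0.0676) and equal list length (0.0503). Of 39 Hox genes, which set position along the body axis, 20 were tested, 9 were longer in H3K4me3 and 1 in H3K9ac (12 and 0 after normalization). Hoxa6 had 1.28 ± 0.268 against 0.0663 ± 0.133 kb. The exception was Hoxb4, with 0.389 ± 0.277 against 1.13 ± 0.0833 kb (adjusted p = 0.000821), which no longer passed after normalization (adjusted p = 0.591) or with lists of equal length (adjusted p = 0.578).

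**Figure D5:**
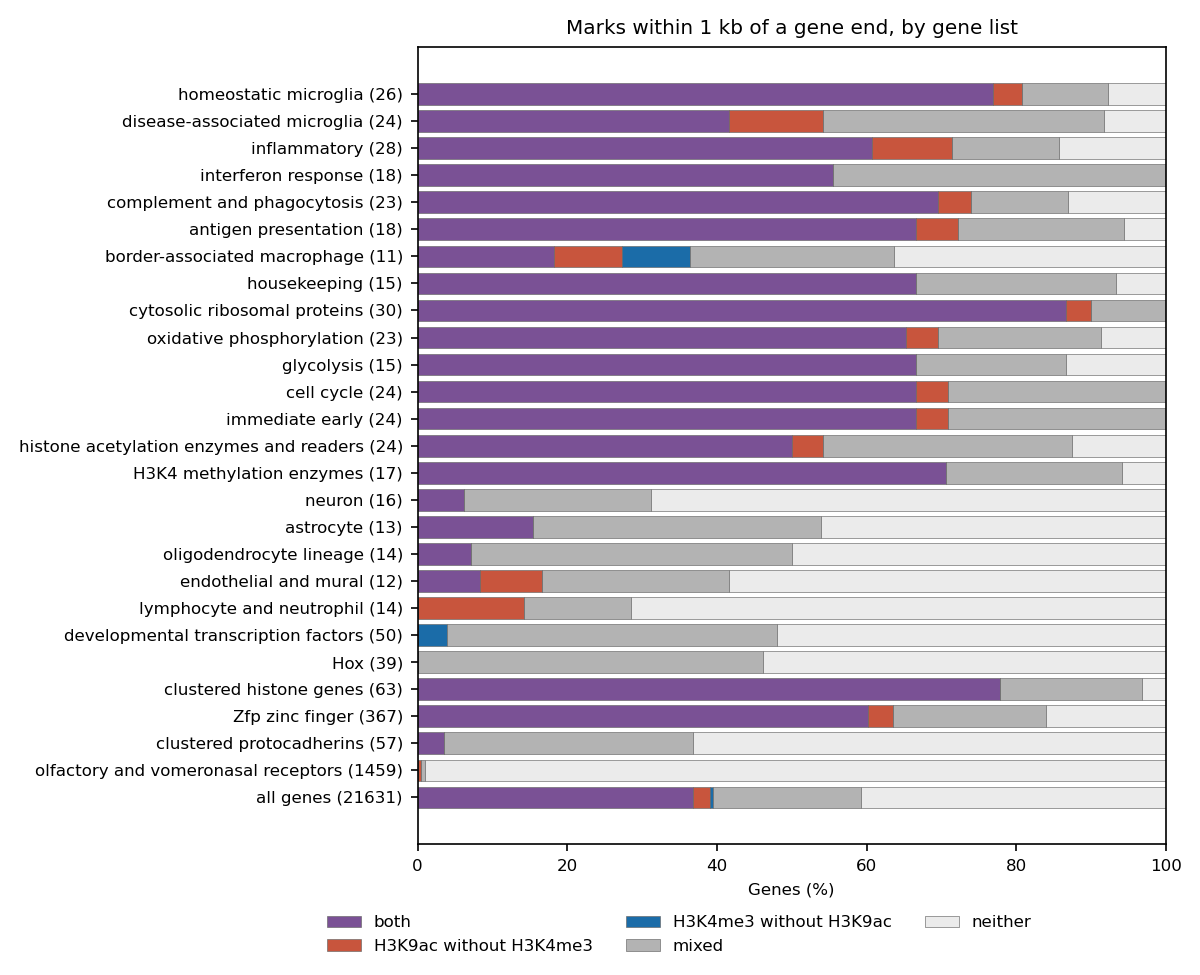
Percent of the genes of each list by the marks within 1 kb of their ends (both marks in all 8 lists, 1 mark in all 4 lists with the other in none, mixed between lists, or neither), with the number of genes in brackets. Homeostatic microglial genes carry both marks in 20 of 26, and developmental factors and Hox genes in none of 50 and 39.

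Markers of other cell types had less of both marks in sum than homeostatic genes, but some of them carried as much as the median gene tested (0.724 and 1.54 kb) or more. Their part in the results was not tested. Cover was taken at the outermost ends of a gene only, so 0 does not show that a start inside it was unmarked. Among constitutive genes, 1 of 15 housekeeping genes, Ywhaz, and 2 of 15 glycolysis genes, Hk1 and Ldha, were also at 0 in all 8 lists. Summed over 26 homeostatic genes, H3K4me3 covered 46.9 to 56.4 kb and H3K9ac 108 to 113 kb by list, and Mef2c was the 1 gene at 0 in all 8. The 16 neuronal genes summed to 2.26 to 3.50 kb and 2.90 to 4.01 kb, with 10 at 0 in all 8 lists, among them Snap25, Syt1, Map2, Gad1 and Camk2a. Most of the neuronal sum lay at Prox1, a homeobox factor of dentate granule neurons and lymphatic vessels, with 2.19 ± 0.477 and 2.86 ± 0.312 kb and both marks in all lists. The 13 astrocytic genes summed to 4.29 to 5.64 and 4.80 to 6.16 kb, with Aqp4, Slc1a2 and S100b at 0. Both marks lay in all lists at Slc1a3, a glutamate transporter (1.04 ± 0.268 and 3.4 ± 0.192 kb), and Gja1, connexin 43 (1.54 ± 0.198 and 1.05 ± 0.484 kb), and the median difference of the 5 astrocytic genes tested was -0.396 kb, with 1 gene called in each direction (1 in H3K9ac and 3 in H3K4me3 after quantile normalization). The 14 oligodendrocyte lineage genes summed to 0.854 to 2.39 and 3.28 to 6.27 kb, with Olig1 and Gpr17 at 0 and both marks in all lists at Mbp, myelin basic protein (0.818 ± 0.287 and 1.60 ± 0.0695 kb). The 12 endothelial and mural genes summed to 2.43 to 3.67 and 6.36 to 7.44 kb, with Cldn5 and Rgs5 at 0. The longest cover of this list lay at Kdr, a VEGF receptor, with both marks in all lists (1.26 ± 0.0553 and 4.14 ± 0.595 kb). The 14 lymphocyte and neutrophil genes summed to 0.788 to 0.933 and 3.50 to 5.07 kb, with Cd3e and S100a8 at 0 and the longest cover at Cd79a, a B cell receptor chain (0.765 ± 0.110 and 2.27 ± 0.271 kb), in a window shared with Arhgef1. Fgfr3, an astrocytic growth factor receptor, was longer in H3K4me3, with 1.26 ± 0.115 against 0.265 ± 0.322 kb (limma, adjusted p = 0.000232). Vtn, a pericyte gene in brain, had 0.552 ± 0.200 against 0.126 ± 0.251 kb (adjusted p = 0.0256), and leaving out replicate 1 or 2 of H3K4me3 or replicate 1, 3 or 4 of H3K9ac ended its call (adjusted p = 0.0521 to 0.0706). The 11 border-associated macrophage genes summed to 5.33 to 5.95 and 13.7 to 15.7 kb, with Cd163, Cd209a, Lyve1 and Ms4a7 at 0 in all 8 lists. Of these 11 genes 6 were tested, 4 longer in H3K9ac, led by Maf (4.13 ± 0.348 against 8.03 ± 0.268 kb), and 1 in H3K4me3, Colec12, a scavenger receptor (0.471 ± 0.148 kb against 0). Mrc1 was among those longer in H3K9ac (0.073 ± 0.146 against 2.26 ± 0.254 kb). After normalization Maf turned to -0.153 kb without passing.

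Away from gene ends the marks parted further. Peaks of the 8 lists merged into 63272 regions, of which 9230 had both marks in all lists, with a median width of 1819 bp, and 7200 of these (78.0%) lay within 1 kb of a gene end. Regions with H3K9ac in all 4 lists and H3K4me3 in none numbered 12449, with a median of 1104 bp, and 970 of these (7.79%) lay within 1 kb of a gene end. Regions with H3K4me3 alone numbered 136, with a median of 909 bp, and 61 (44.9%) lay near an end. Most regions, 41457, fell in none of these classes, as their marks were not in all or none of the lists. Their median width was 453 bp, and 5738 (13.8%) lay near an end. The longest region with both marks was 21510 bp at Cttnbp2nl, followed by Smap2 (19001 bp), Med29 (16030), Lgmn, the lysosomal protease legumain (15403), Zeb2 (15385) and Sall1 (14936). The region named for Med29, chr7:28371103-28387132, holds the far end of that gene but not its start. It also holds the whole of Zfp36 (chr7:28376784-28379228). The longest with H3K9ac alone, 15906 bp at chr8:89383139-89399044, had Sall1 as its nearest gene at a distance of 338977 bp. The next lay within Rad51b (12165 bp), Smox (10288), Fmnl3 (9563) and Cflar (9519). The longest with H3K4me3 alone lay at Ascl2 (1953 bp), Sp9 (1825) and Nkx2-3 (1808).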

How the data were processed

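Peak lists of H3K4me3 and H3K9ac in Ctrl microglia were compared, 4 libraries per mark. The submitters' processing notes name MACS2 2.2.7.1, Bowtie2 2.4.5, DiffBind 3.12.0, Trim Galore 0.6.5 and SAMtools 1.3.1, with no roles, and the mm10 build. Each deposited peak carries the authors' fold enrichment, a ratio to local background, and their −log10 p and −log10 q values, which were used only within a list. How the peak caller was set and which control it used is not given in the sources used here. Lists ended at a −log10 q of 1.30 to 1.33, and at most 0.0450% of peaks were alike in 2 replicates.

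Gene positions came from RefSeq GRCm38.p6 (chromosomes 1 to 19 and X). With gene ends moved by 200 kb, 1274 to 1389 ends met H3K4me3 and 3421 to 3676 H3K9ac. Covered length was tested with limma 3.58.1 (R 4.3.3), two-sided, for genes with a peak in at least 2 of 8 lists, with Benjamini-Hochberg adjustment and a threshold of 0.05. Lengths are bounded and often 0, so these p-values are approximate. Per-library measures were tested with exact permutation. Scripts were tested on simulated data.

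Members and gene lists were chosen with earlier results of these data known. Named genes are fixed microglial and control genes, the 10 with the smallest adjusted p per direction, the 10 ends per class with the longest cover, the 5 starts per direction with the largest summit shift, and per list those with the largest differences and nearest the median. Class members of a list were named after their values were seen. Some genes that this rule names are not reported here.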

Additional observations from a re-analysis of the deposited data

Results flagged for a closer look

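Values within a mark were looked at for 1 library far from the other 3, over 202 groups of 4 libraries, and 22 were found. The rule flags about 5% by chance for continuous values, but many of these lengths are 0. A single list with cover beside 3 at 0 is always flagged, so the 22 cannot be set against that share. Replicate 1 of H3K4me3 had 11059 gene ends with a peak, against 10560 to 10583 in the other 3 lists, and it was also the longest H3K4me3 list. In H3K4me3, 1 list stood apart at C1qa (2.79 kb against 2.2 to 2.29), Ppp1r9a (0.606 kb against 0.875 to 0.913), Rnf220 (1.01 kb against 1.82 to 1.94), Dlx2 (1.0 kb against 2.01 to 2.06), H1f2 (2.23 kb against 1.63 to 1.72). In H3K9ac, 1 list stood apart at Trem2 (3.72 kb against 3.38 to 3.41), Apoe (1.92 kb against 2.5 to 2.61), Ppp1r9a (5.72 kb against 6.09 to 6.16), Il10ra (8.43 kb against 8.94 to 9.02), Nfkb1 (3.48 kb against 2.75 to 2.87). A single list had any covered length, with the other 3 at 0, in H3K4me3 at Apoe (0.561 kb), Tbx15 (0.790 kb) and in H3K9ac at Hoxa5 (0.265 kb), Cxcl12 (0.282 kb), Lgals3 (0.379 kb), Ccnb2 (0.540 kb), Slc17a7 (0.280 kb), Vtn (0.502 kb), Tbx15 (0.746 kb), Hoxd9 (0.479 kb), Hoxa6 (0.265 kb). The Hoxa5 and Hoxa6 values come from 1 shared peak.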

How the results depend on the processing

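The alternatives changed 1 choice at a time, and 182 of 206 recomputed summary values and 1414 of 1493 single-gene values were counted as unchanged. Per-library measures and single genes had to keep their direction and side of the threshold. A sign change of a single gene that passed in neither setting was not counted. Numbers of ends and genes were judged by a set ratio to the main value, and overlaps and summit distances by their spread. Where a result moved, the cause was not tested, unless fewer genes or ends were tested. With a −log10 q of at least 5, there were 4720 ends with both marks, 24 with H3K4me3 alone and 134 genes with longer H3K4me3, summits of different marks were 89.4 bp apart, and 93.0% of H3K4me3 peaks overlapped H3K9ac. With lists of equal length, the gene end difference was -132, 548 ends had H3K4me3 alone and 393 H3K9ac alone, summits were 98.9 bp apart, the overlaps were 77.3% and 62.5%, and 1006 genes had longer H3K4me3. Quantile normalization gave 2085 genes longer in H3K9ac and 2524 in H3K4me3. An overlap of 50% of the peak gave 90.0% and 16.7%. At least 3 of 4 lists against at most 1 gave 297 ends with H3K4me3 alone and 2017 with H3K9ac alone. Over single start sites, which are fewer, there were 5443, 37 and 222 starts with both marks, H3K4me3 alone and H3K9ac alone, and 6356 and 212 genes longer in H3K9ac and H3K4me3.

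With 1 library left out, ends with H3K4me3 alone numbered 69 to 103, ends with both marks 8300 to 8703, ends with H3K9ac alone 1078 to 1228, and genes longer in H3K9ac 9680 to 9903 and in H3K4me3 265 to 336. The replicate block gave 9800 genes longer in H3K9ac and 320 in H3K4me3. The deviations of same-numbered libraries from the mean of their mark correlated at -4e-04, -0.0274, -0.0083 and 0.0046. By these deviations, 1 of the 4 correlated best with its own number. Such values cannot tell whether same-numbered libraries came from the same source, as the antibodies differ.

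Among the single genes counted above, the sign changed under quantile normalization at Tmem119 (-0.232 kb), Csf1r (-0.0244), Trem2 (-0.983), Sall1 (-0.707), Irf8 (-1.94), Maf (-0.153), Ndufa4 (-0.377), Tpi1 (-0.304), Mki67 (-0.207), Prox1 (-1.26), H1f2 (-0.509) and Pcdhga5 (-0.0668). With equal lists it changed at Mki67 (-0.349), Pcdhga7 (-0.439) and Pcdhga5 (-0.663), with 5-kb windows at Prox1 (-0.0525), and with the stricter threshold at Pfkp (0.103). Myc was not among the genes counted and also changed sign under quantile normalization (-2.79 kb). Read depth is not known from the lists, and cover per gene was taken at its outermost ends only, so absence of a peak does not show absence of a mark.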
